A study of Mus musculus with 6 samples.

Results

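Proximal lipid-absorbing enterocytes were taken from a droplet survey of mouse small-intestinal crypt cells, and 222 of 4890 kept cell barcodes (4.54%) met the definition. A barcode was kept when it had at least 300 detected genes and at most 25% of its counts on mitochondrially encoded genes, which 4890 of 13191 barcodes did. It was counted as a member when it held at least 1 unique molecular identifier (UMI, a tag that marks 1 captured RNA molecule) on 3 or more of 7 genes, namely Apoa4, Apoc3, Rbp2, Lct, Creb3l3, Adh6a and Guca2b. It also had to hold UMIs on fewer than 3 of 6 ileal genes, namely Fabp6, Tmigd1, Slc10a2, Slc51a, Slc51b and Slc13a1. The members were thus chosen on their own counts, and their genotype is called knockout or flox as the collections were labelled. Their levels against other barcodes are given as a description with no test, and only knockout against flox was tested.

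Crypt cells were isolated fresh from the small intestine of untreated C57BL6 mice at 10 weeks of age and captured by Drop-seq, which tags the polyadenylated RNA of single cells in droplets. The knockout group lacked Ptger4, the gene for the prostaglandin E2 receptor EP4, in the epithelium, and the flox group carried the floxed Ptger4 gene. The promoter of the Cre, the deleted part of the gene, the intestinal segment and the number of animals are not stated in these sources. Each genotype had 3 collections of droplets; collections 1 and 2 were read from their codes as biological replicate 1, and collection 3 as biological replicate 2. P-values therefore measure the spread between these collections or their sums, which may in part be technical.

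Enterocytes are the absorptive cells that leave the crypt and cover the villus. In the upper small intestine they hydrolyse sugars and peptides at the brush border, bind fatty acids with cytosolic proteins, rebuild triglyceride and pack it with apolipoproteins into chylomicrons. In the ileum, enterocytes take up bile acids. Among the 7 defining genes, Apoa4 and Apoc3 encode apolipoproteins of chylomicrons, Rbp2 a retinol-binding protein and Lct lactase. Creb3l3 encodes a membrane-bound transcription factor of lipid metabolism, Adh6a an alcohol dehydrogenase and Guca2b uroguanylin, a secreted peptide that acts on guanylate cyclase C.

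In build GRCm38, Apoa1 (chr9:46228580-46230466), Apoc3 (chr9:46232933-46235636) and Apoa4 (chr9:46240696-46243459) lie side by side. The other defining genes lie apart, with Rbp2 at chr9:98486115-98509781, Lct at chr1:128284756-128328318, Creb3l3 at chr10:81084324-81098874, Adh6a at chr3:138313286-138331134 and Guca2b at chr4:119656607-119658954. Promoter windows running from 250 bases before to 50 bases after the start were looked up in RefSeq (GRCm38.p6) for the 7 defining genes and for Fabp1, Apoa1 and Fabp2, and 9 of the 10 genes matched. Apoc3 did not. Each window was searched on both strands for CAAAGTNCA, a form of the HNF4 element found in 1.41% of all 32851 promoters of this length. A GATA element, AGATAA, was searched in the same way and stood in 11.2% of them. A part of the HNF1 element, GTTAAT, stood in 7.10%. CAAAGTNCA was found in 3 of the 9 genes (Apoa4, Rbp2 and Fabp2), AGATAA in 3 (Rbp2, Lct and Creb3l3) and GTTAAT in 2 (Guca2b and Fabp1). The 9 genes had 10 windows, since Creb3l3 had more than 1. Its window at chr10:81092542-81092841 held AGATAA, and the one at chr10:81098823-81099122 did not. These counts are of genes, while the shares above are of promoters. The windows of Apoa4, Rbp2 and Lct are shown, 5′ to 3′ on the gene's strand, because these genes had the highest ratios of members over other barcodes among the defining 7. Capitals mark the matches, which do not overlap. Counted from the start, they begin at -182 in Apoa4, at -101 (CAAAGTNCA) and -43 (AGATAA) in Rbp2, and at -101 and -90 (AGATAA) in Lct. A match describes these letters and is not a measured binding site.
Apoa4, plus strand, chr9:46240594-46240893: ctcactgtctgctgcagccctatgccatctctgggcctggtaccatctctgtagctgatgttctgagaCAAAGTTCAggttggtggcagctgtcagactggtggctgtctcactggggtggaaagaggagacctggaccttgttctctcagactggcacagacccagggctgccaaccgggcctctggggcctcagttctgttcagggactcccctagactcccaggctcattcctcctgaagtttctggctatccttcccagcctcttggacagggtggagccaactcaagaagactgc
Rbp2, plus strand, chr9:98490287-98490586: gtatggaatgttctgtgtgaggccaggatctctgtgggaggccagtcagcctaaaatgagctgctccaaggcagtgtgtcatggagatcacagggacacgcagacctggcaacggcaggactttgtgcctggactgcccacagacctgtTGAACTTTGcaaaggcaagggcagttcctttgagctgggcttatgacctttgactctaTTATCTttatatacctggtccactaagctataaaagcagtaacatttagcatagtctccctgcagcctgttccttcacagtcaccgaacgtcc
Lct, minus strand, chr1:128328269-128328568: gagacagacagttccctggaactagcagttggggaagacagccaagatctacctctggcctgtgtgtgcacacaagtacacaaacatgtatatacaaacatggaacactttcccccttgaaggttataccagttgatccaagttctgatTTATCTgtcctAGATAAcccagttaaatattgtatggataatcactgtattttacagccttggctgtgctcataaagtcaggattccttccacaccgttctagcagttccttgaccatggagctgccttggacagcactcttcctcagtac

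The 6 collections held between 1228337 and 3146909 counts, and the members together held 618561. The median member had 1885.5 counts on 996.5 genes, against 1235.5 counts on 720 genes in the other 4668 kept barcodes. The rule counts detected genes and so reads depth. Of the kept barcodes, 133 occurred in more than 1 collection, 11 of them members. The sharing joined flox 1, flox 2 and knockout 1 on one side and flox 3, knockout 2 and knockout 3 on the other, and no barcode crossed these sets. Xist was abundant only in collection 3 of each genotype, with 1674 counts in flox 3, 1880 in knockout 3 and at most 12 in the others.

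Members made up a small and uneven share of each collection. In flox they were 45 of 1053 barcodes in collection 1 (4.27%, 95% Clopper-Pearson interval 3.13 to 5.68%), 10 of 473 in collection 2 (2.11%, 1.02 to 3.85%) and 64 of 926 in collection 3 (6.91%, 5.36 to 8.74%). In knockout they were 42 of 754 (5.57%, 4.04 to 7.46%), 32 of 703 (4.55%, 3.13 to 6.37%) and 29 of 981 (2.96%, 1.99 to 4.22%). The genotypes overlapped, and flox held both the lowest and the highest collection. Over biological replicates the share was 4.02% ± 1.50 in knockout and 5.26% ± 2.34 in flox (SD, n = 2 each, exact two-sided permutation p = 0.667, where 0.333 is the smallest this design allows). Over single collections the exact permutation p was 1, with 0.1 the smallest possible. After each barcode was thinned to 500 UMIs and the rule applied again, the shares were 1.79% and 2.85% (exact permutation p = 0.667). The intervals cover counting error only.

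**Figure D1:**
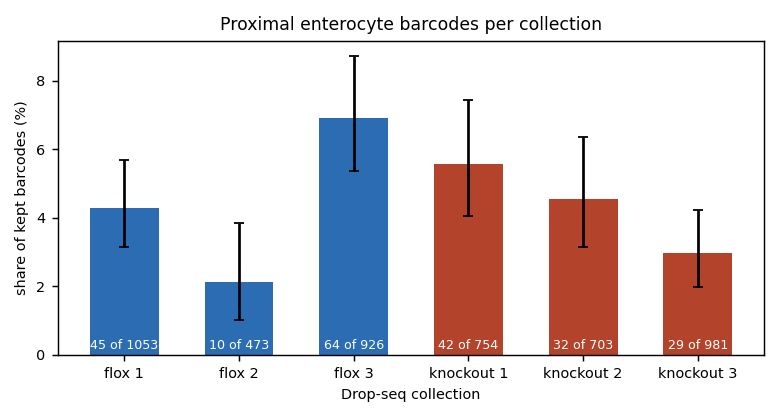
Share of kept barcodes (percent) that were members in each of the 6 collections, with bars for the share, error bars for the 95% Clopper-Pearson interval and colours for flox (blue) and knockout (red). Flox ranged from 2.11 to 6.91% and knockout from 2.96 to 5.57%, so the genotypes overlapped.

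The label was checked with genes the rule did not use. Fabp1, the liver-type fatty acid binding protein of proximal enterocytes (chr6:71199827-71205023), was the one marker of the 5 named for these cells that lay outside the rule. It had a UMI in 77.0% of members (171 of 222, exact interval 70.9 to 82.4%), in 10.2% of the 275 ileal enterocytes defined by the mirrored rule and in 2.19% of 137 T or NK cell barcodes. T or NK cells should lack the gene, and their median depth was 831 counts, so all were also compared after thinning to 500 UMIs. The thinned shares were 59.7% of 221 members, 1.82% of 274 ileal barcodes and 0% of 124 T or NK barcodes deep enough to thin, where a count of 0 allows up to 2.42%. Apoa1, the main apolipoprotein of high-density lipoprotein, had a UMI in 97.3% of members and 6.57% of T or NK barcodes (88.7% and 2.42% when thinned). All 12 general enterocyte markers were at least 2 times higher in members than in other kept barcodes on the mean of the collections and higher in each, with a median ratio of 5.11. The T or NK, B or plasma and enteroendocrine markers lay on the other side, with median ratios of 0.0837 over 4 markers, 0.0711 over 2 and 0.0814 over 7 that could be compared. Stem cell, goblet, cycling and Paneth markers were lower to a lesser degree, with median ratios of 0.262, 0.330, 0.390 and 0.426. Not all markers of these lists were at least 2 times lower on the mean and lower in each collection. By that measure 4 of 5 stem cell, 3 of 8 goblet, 2 of 10 cycling and 6 of 10 Paneth markers were lower. At least 3 Paneth markers were found in 79 members (35.6%) and at least 3 goblet markers in 48 (21.6%). These shares were 40.4% and 30.3% in the other kept barcodes.

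Of the 7 defining genes, Guca2b was detected most widely, in 93.2% of members, and Lct least, in 36.0%. Rbp2 was found in 75.7%, Creb3l3 in 73.9%, Apoa4 in 62.6%, Adh6a in 52.3% and Apoc3 in 50.5%. None of the 137 T or NK barcodes held Apoa4, which allows a share of up to 2.19% (3 counts). The excluding genes were not all absent. Fabp6, the ileal bile acid binding protein, had a UMI in 25.2% of members and 19.0% of T or NK barcodes. After thinning, these shares were 11.8% and 12.9%. Since the rule limited how many excluding genes a member could hold, no conclusion is drawn from this comparison. Slc51a and Slc51b, the subunits of the basolateral bile acid exporter, were found in 47.7% and 34.2% of members against 2.19% and 0.730% of T or NK barcodes. When thinned, these shares were 18.1% and 8.14% against 0.806% and 0.806%. Slc10a2, the apical bile acid importer, had 0 counts in the members. Expressed as CPM (counts scaled to a common library total), the limit that a count of 0 allows (3 counts) was 4.85 in members, and Slc10a2 stood at 72.7 in ileal barcodes.

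The rule has a threshold at 3 genes, and the barcodes on either side of it form a gradient. Among barcodes with fewer than 3 ileal genes, 154 held 2 of the 7 genes, 76 held 3 and 28 held all 7. Summed over barcodes, Fabp1 stood at 129 CPM just outside the threshold, 973 CPM just inside and 6283 CPM at 7 genes, and Apoa1 at 792, 2783 and 13371 CPM. The goblet gene Tff3, a trefoil peptide, ran the other way, at 5949 CPM outside, 3941 CPM just inside and 199 CPM at 7 genes. The proliferation gene Mki67 went from 419 to 298 to 8.65 CPM, and ribosomal protein genes from 15.7% to 13.5% to 6.78% of counts. Of the Tff3 counts in members, 1 barcode held 41.3% in knockout and another 39.2% in flox. Median depth was 2162 counts at 2 genes. At 3, 4, 5, 6 and 7 genes it was 1648.5, 1444.5, 1922.5, 2430 and 4141.5 counts. It was thus higher with each further gene from 4 to 7. The part of depth in this gradient was not tested.

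**Figure D2:**
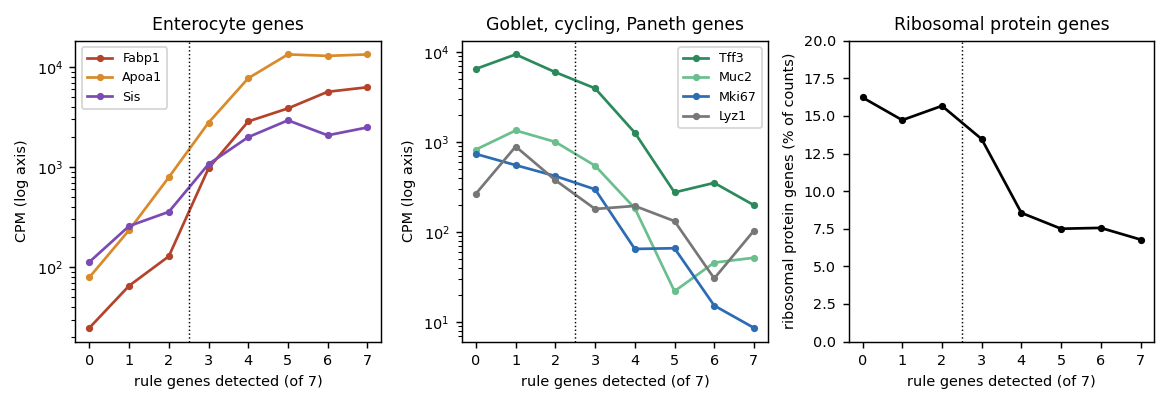
Summed level of enterocyte genes (left) and of goblet, cycling and Paneth genes (middle; CPM, log axes), and ribosomal protein genes as a percent of counts (right), in barcodes grouped by how many of the 7 defining genes they hold; the dotted line is the membership threshold. Fabp1 was higher in each group with more defining genes and Apoa1 in each up to 5 genes, while Tff3 went from 5949 CPM at 2 genes to 199 CPM at 7 and Mki67 from 419 to 8.65 CPM.

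Across genes, the members were described by the mean CPM of the 6 collections. Outside the rule, 361 of 5929 genes compared (6.09%) were at least 2 times higher in members than in all other kept barcodes and higher in each collection, and 392 (6.61%) were lower by the same measure. These counts use the cells the rule selected and carry no test. Among genes outside the rule with at least 100 CPM in members, Fabp1 had the largest ratio. It stood at 4064, 4335 and 2053 CPM in the flox collections and 3845, 4257 and 1925 CPM in knockout, a mean of 3413 CPM against 188 CPM elsewhere (18.1 times). Collection 3 of both genotypes was the lowest. Apoa1 followed a flatter course, from 7090 to 9053 CPM over the collections, with a mean of 7936 CPM against 706 CPM (11.2 times).

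Lipid handling genes were high in the members. Of 22 genes of lipid absorption and chylomicron assembly that could be compared outside the rule, 17 were at least 2 times higher in members on the mean of the collections and higher in each, 0 were lower by that measure and the median ratio was 4.09, against 0.977 over all genes. Apoc2, the activator of lipoprotein lipase, stood at 125 CPM against 9.51 CPM (13.1 times). Apob, the structural protein of the chylomicron, stood at 336 CPM (6.07 times), and Mttp, which loads lipid onto it, at 691 CPM (5.09 times). Fabp2, the intestinal fatty acid binding protein, reached 5500 CPM (5.97 times). Dgat1, which makes triglyceride, stood at 831 CPM and was 2.94 times higher. The retinoid list was smaller, with 2 of 5 genes higher, among them Rdh7, a retinol dehydrogenase, at 97.0 CPM (9.88 times) and Aldh1a1, which makes retinoic acid, at 206 CPM (7.03 times).

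Digestive and transport genes of the brush border were high as well. Of 16 brush border hydrolases compared, 14 were higher in members by the same measure, with a median ratio of 4.64. Sis, sucrase-isomaltase, stood at 1986 CPM against 312 CPM (6.36 times) and Asah2, a neutral ceramidase, at 221 CPM (13.0 times). Slc6a19, a transporter of neutral amino acids, stood at 109 CPM (11.3 times), and 8 of 12 genes of amino acid and peptide transport were higher. Among sugar genes, 4 of 6 were higher, with Slc5a1, the sodium-glucose cotransporter, at 695 CPM (5.91 times) and Khk, ketohexokinase, at 424 CPM (4.44 times). Slc2a2, the glucose exporter GLUT2, was rare at 23 counts (43.6 CPM) in members, and ileal barcodes had 0 counts in more than 2 times as many counts in all (1345756 against 618561). Xenobiotic and alcohol metabolism had 13 of 18 genes higher, with Cyp3a25 at 119 CPM (12.7 times) and Gstm3, a glutathione transferase, at 248 CPM (7.78 times).

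Some lists that mark absorptive cells elsewhere were not raised in this way. None of 9 genes of fatty acid oxidation and PPAR targets outside the rule met the 2-fold measure (median ratio 1.57). None of 7 genes of iron, calcium and folate uptake did so either (median ratio 1.84). Slc40a1, the iron exporter ferroportin, had 1 count in members against 70 counts (56.9 CPM) in ileal barcodes, and Cybrd1, the duodenal ferric reductase, had 0 counts in members. Both lie within the 4.85 CPM limit. Since Cybrd1 and Slc40a1 are known for the duodenum, "proximal" is used here for the lipid and lactase genes and not as a measured segment.

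**Figure D3:**
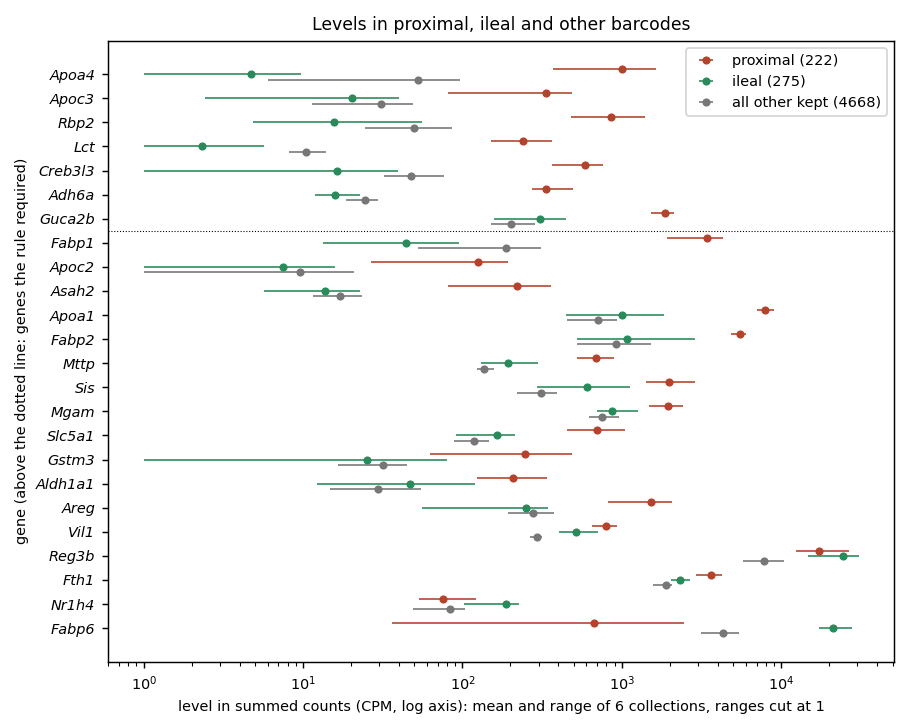
Mean CPM (points, log axis) and the range over 6 collections (lines, cut at 1 CPM where a collection was lower) of selected genes in the 222 members, the 275 ileal barcodes and all 4668 other kept barcodes, which include the ileal ones. Fabp1 stood at 3413 CPM in members, 44.3 CPM in ileal and 188 CPM in other barcodes. Fabp6, an excluding gene of the rule, ran the other way.

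Ileal enterocytes were the most like set, and 97 barcodes that met both gene counts were left out of either. Against the ileal barcodes, 200 of 5676 genes (3.52%) were at least 2 times higher in members on the mean and higher in each collection, and 82 (1.44%) were lower by the same measure, again as a description. Of 23 lipid absorption genes compared with ileal barcodes, 8 were higher and 1, Acat2, was lower, with a median ratio of 1.92. Among genes outside the rule with at least 100 CPM in members and higher in each collection, Fabp1 had the largest ratio, 77.1 times (44.3 CPM in ileal barcodes). Apoc2 was 16.8 times, Asah2 16.01 times and Slc6a19 9.33 times higher. Areg, amphiregulin, a ligand of the EGF receptor, stood at 1527 CPM in members against 249 CPM in ileal barcodes (6.13 times). Members ranged from 824 to 2068 CPM and ileal barcodes from 55.4 to 345 CPM, so the collections did not overlap. Ckb, brain-type creatine kinase, was 8.38 times higher, at 220.01 CPM. Gata4, a transcription factor of the proximal intestine, was low in both, with 19 counts in members (28.7 CPM) and 13 in ileal barcodes (7.29 CPM).

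Fewer genes leaned the other way. Nr1h4, the bile acid receptor FXR, stood at 75.8 CPM in members and 188 CPM in ileal barcodes, lower in all 6 collections. Tspan1, a tetraspanin, stood at 63.0 CPM against 268 CPM, Scd2, a stearoyl-CoA desaturase, at 53.5 CPM against 202 CPM and Pglyrp1, a peptidoglycan recognition protein, at 48.9 CPM against 138 CPM. The antimicrobial lectin Reg3b was abundant in both sets, at 17207 CPM in members and 24373 CPM in ileal barcodes. Member collections ran from 12385 to 26734 CPM and ileal ones from 14777 to 30602 CPM, so these ranges overlapped.

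Knockout was then set against flox within the members, on raw counts summed per biological replicate (148465 and 192418 counts in flox, 202343 and 75335 in knockout). No gene passed edgeR's quasi-likelihood test at a Benjamini-Hochberg adjusted p under 0.05, that is 0 of 3009 genes (percent called 0). At an unadjusted p under 0.05, 138 genes (4.59%) passed, 68 higher (2.26%) and 70 lower (2.33%) in knockout, and DESeq2 called 2 genes, Mt1 and Clca3 (0.0665%). The median log2 fold change over all genes was -0.01. The sums were uneven: 1 knockout sum held 29 barcodes and, in flox 2, a single barcode held 42.4% of the member counts. With 2 sums per genotype, a gene that missed the threshold is not shown to be alike in the genotypes.

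Mt1, the gene for a metal-binding metallothionein (chr8:94179082-94180327), had the smallest p. It stood at 428, 122 and 780 CPM in the flox collections and at 2208, 1827 and 2509 CPM in the knockout collections. Every knockout collection was above every flox collection, a pattern that 275 of the 3009 genes (9.14%) showed in one direction or the other. Knockout exceeded flox by 1.99 on the log2 scale (SE 0.32, n = 2 sums each), with an edgeR adjusted p of 0.215 and a DESeq2 adjusted p of 0.000134. The adjusted p for Mt1 was under 0.05 in 15 of 25 alternative settings. Some of these settings left 1 sum in a genotype, where p does not measure a spread between replicates of that genotype. The tally is therefore not a measure of how firm the difference is. A Mt1 UMI was found in 91.3% of 103 knockout members (median 2011 counts) and 49.6% of 119 flox members (median 1789 counts). Thinned to 500 UMIs, with 1 shallower knockout member left out, the shares were 52.4%, 61.3% and 72.4% in the knockout collections and 22.2%, 10% and 31.2% in the flox collections (means 62.0% ± 10.0 and 21.2% ± 10.7, SD, n = 3 each, exact two-sided permutation p = 0.1, the smallest this design allows). Per biological replicate they were 56.2% and 72.4% in knockout and 20% and 31.2% in flox (exact two-sided permutation p = 0.333, the smallest for 2 against 2). T or NK barcodes, where the gene should be low, had a Mt1 UMI in 8.93% in knockout (median 748 counts) and 3.70% in flox (median 897 counts).

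The Mt1 difference was not particular to the members. In the other kept barcodes without immune cells its log2 fold change was 2.28, and the difference between the 2 fold changes, tested as an interaction, was -0.28 (SE 0.27, edgeR adjusted p = 1). In ileal barcodes thinned to 500 UMIs, 62.7% in knockout and 16.7% in flox held a Mt1 UMI. Other genes of the metallothionein and zinc list did not share the pattern as a group: 6 were tested and 0 passed the adjusted threshold. Mt1 and Mtf1 were higher and none lower at an unadjusted p under 0.05, where 68 of all 3009 tested genes (2.26%) were higher. Mtf1, the zinc-sensing transcription factor that acts on metallothionein genes, stood at 24.2, 40.5 and 57.2 CPM in flox and 116, 96.1 and 106 CPM in knockout. The log2 fold change of Mtf1, 1.32 with an SE of 0.50 (edgeR adjusted p = 0.974), rested on 45 counts. Mt2, the neighbouring metallothionein gene, stood at 40.4, 40.5 and 177 CPM in flox and 61.8, 0 and 92.9 CPM in knockout, with overlapping genotypes and a log2 fold change of -0.99 (SE 0.68, edgeR adjusted p = 0.974).

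**Figure D4:**
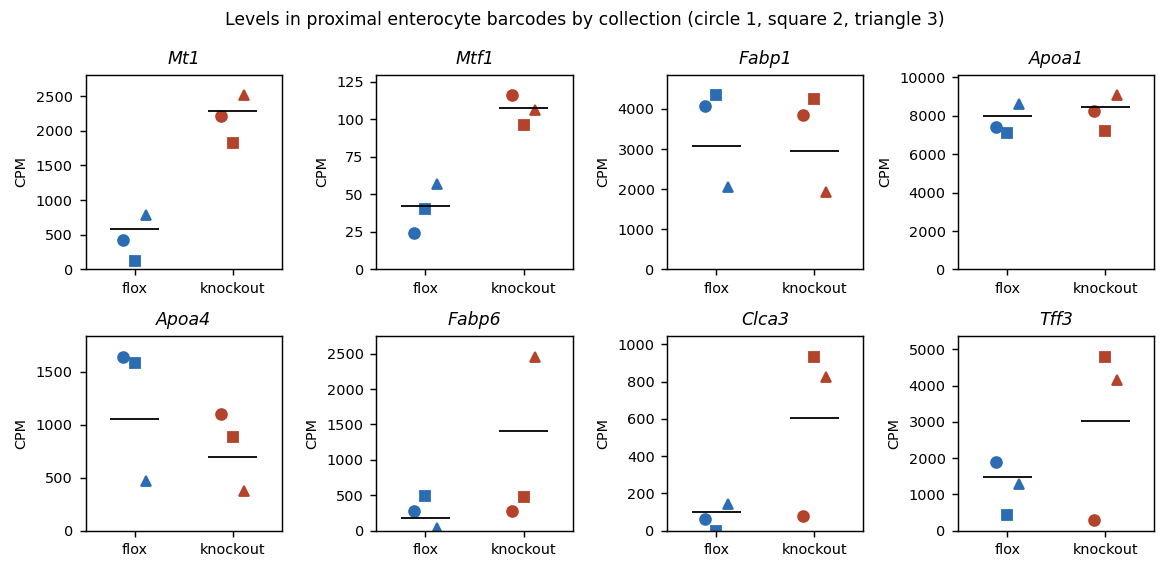
CPM of 8 genes in members for flox and knockout, with circles, squares and triangles for collections 1, 2 and 3 and a line at the mean of the biological replicates; each axis starts at 0. Mt1 lay between 122 and 780 CPM in flox and between 1827 and 2509 CPM in knockout, while Fabp1 and Apoa4 were lowest in collection 3 of both genotypes.

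Ptger4 itself could not check the genotype in these cells. It had 21 counts in all members, at 16.2, 0 and 26.0 CPM in flox and 46.3, 27.5 and 79.6 CPM in knockout, too few to be tested. All knockout collections lay above all flox collections, the direction opposite to that of the label. Among the 3009 tested genes, 275 (9.14%) had collections that did not overlap, in one direction or the other. The other kept barcodes, immune cells included, held 172 Ptger4 counts. Without the immune cells, their log2 fold change for Ptger4 was also above 0, at 0.61, given as a value only. Drop-seq reads the 3′ end, and whether the deleted part includes it is not stated in these sources. Among 4 tested genes of the prostaglandin pathway, 0 passed at an unadjusted p under 0.05. Of 8 tested early genes that respond to cyclic AMP, the second messenger of EP4, 0 passed (median log2 fold change -0.16). Areg, one of them, stood at 1761, 1134 and 2068 CPM in flox and 1691, 824 and 1686 CPM in knockout, with a log2 fold change of -0.26 (SE 0.23, edgeR adjusted p = 0.989).

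The genes that characterise the members showed no difference past the test. All 21 tested genes of lipid absorption outside the rule missed it, also at an unadjusted p under 0.05, with 10 higher, 11 lower and a median log2 fold change of 0.00 (-0.74 to 0.82). For Fabp1 the log2 fold change was 0.01 (SE 0.37) and for Apoa1 0.11 (SE 0.22). Fabp2 gave -0.09 (SE 0.21) and Mttp -0.19 (SE 0.24), where the SE is that of the log2 fold change. Brush border hydrolases (16 tested outside the rule, median 0.18) and xenobiotic genes (14 tested outside the rule, median -0.21) also had 0 genes at an unadjusted p under 0.05. Single genes of other lists reached that unadjusted level: Pdzk1, a scaffold of the microvillus, at -1.02, and Slc16a10, an aromatic amino acid transporter, at -1.29 on the log2 scale were lower. Nr1i2, the xenobiotic receptor PXR, at 0.9996 was higher (edgeR adjusted p = 0.974 for each of these 3 genes).

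Slc16a10 stood at 121, 81.0 and 177 CPM in flox and 30.9, 82.4 and 79.6 CPM in knockout, so flox 2 and knockout 2 overlapped. Among the dissociation stress genes, Hspa1a and Dnajb1, a heat shock protein and its cochaperone, were 2 of 12 tested genes at an unadjusted p under 0.05. Both were higher in knockout (log2 fold changes 1.10 and 1.15, edgeR adjusted p = 0.974). Over all 3009 tested genes, 68 (2.26%) were higher at that unadjusted level. Of 81 ribosomal protein genes, 62 had a fitted value above 0 and the median log2 fold change was 0.14, while 1477 of all 3009 genes were above 0. The genes with the smallest p among those lower in knockout were Kmt2e, a chromatin regulator (-1.07, SE 0.32), BC005537 (-1.22, SE 0.38), Eif4a2, a translation initiation helicase (-1.31, SE 0.41), Bdp1, a subunit of an RNA polymerase III factor (-1.19, SE 0.39), Eml4, a microtubule-associated protein (-1.19, SE 0.39), and Atrx, a chromatin remodeller (-0.81, SE 0.27), each with an edgeR adjusted p of 0.974. Kmt2e stood at 283, 243 and 265 CPM in flox and at 123, 96.1 and 146 CPM in knockout. Its collections did not overlap between the genotypes, as for 275 of the 3009 genes (9.14%) in one direction or the other.

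**Figure D5:**
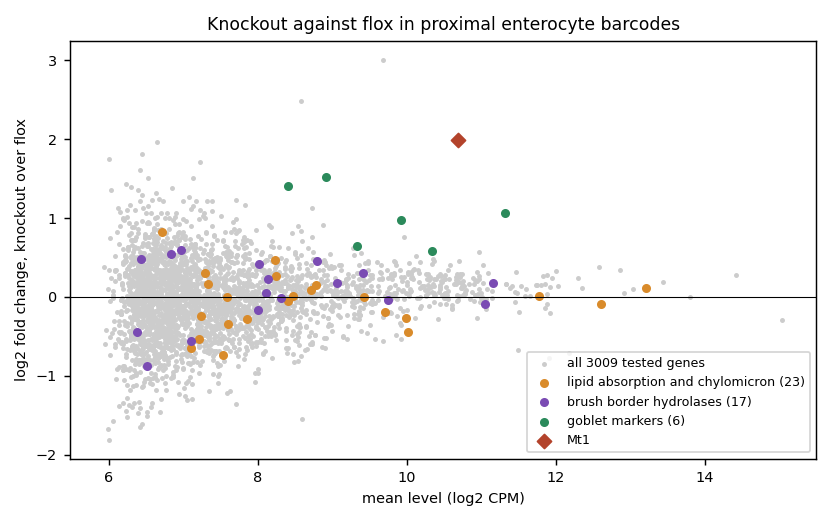
Log2 fold change of knockout over flox against mean log2 CPM for the 3009 genes tested in members, 1 grey point per gene, with lipid absorption genes in orange, brush border hydrolases in purple, goblet markers in green and Mt1 as a diamond. No gene passed the adjusted threshold. Mt1 lay at 1.99 and the lipid genes ran from -0.74 to 0.82. The 6 goblet markers lay above 0, as did 1477 of the 3009 genes.

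Goblet transcripts differed between collections inside the members. Of 6 tested goblet markers all 6 were higher in knockout, 4 of them (Muc2, Tff3, Fcgbp and Spink4) at an unadjusted p under 0.05. Their median log2 fold change was 1.02, with 0 past the adjusted threshold. Over all 3009 tested genes, 1477 were above 0 and 68 (2.26%) were higher at that unadjusted level. Summed over the 10 markers, the level was 4653, 1620 and 3518 CPM in the flox collections and 1212, 13761 and 9265 CPM in knockout. Knockout 2 and 3 were above all flox collections, and knockout 1 was the lowest of the 6. At least 3 goblet markers were found in 48 members, 27 knockout and 21 flox. Muc2, the main secreted mucin, had a log2 fold change of 1.40 (SE 0.33, edgeR adjusted p = 0.974), and 1 barcode held 72.6% of its counts in knockout 2 and another 94.3% in knockout 3. Within flox 1, flox 2 and knockout 1 the value for Muc2 was -2.41. Clca3, a goblet protein outside the marker list, had 41.4% of its knockout counts and 55.6% of its flox counts in 1 barcode each. By collection, 1 barcode held 80.9% of the Clca3 counts in knockout 2 and another 93.5% in knockout 3. The log2 fold change came to 2.48 with an SE of 0.47 (edgeR adjusted p = 0.417, DESeq2 adjusted p = 0.00538). Without the members that held 3 or more goblet, immune, enteroendocrine or tuft markers, an alternative chosen after seeing the data, Mt1 gave 2.03 and an edgeR adjusted p of 2.21e-07.

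Fabp6 stood at 283, 486 and 36.4 CPM in the flox members and 278, 481 and 2456 CPM in knockout. It is an excluding gene of the rule, so its values in members are given with no conclusion from a test. Its log2 fold change of 3.01 (SE 0.88, edgeR adjusted p = 0.974) became 1.13 without knockout 3. Within flox 1, flox 2 and knockout 1, a set of collections that share barcodes, the value for Fabp6 was -0.30. Within flox 3, knockout 2 and knockout 3, the other such set, it was 5.29. Flox 3 held 7 Fabp6 counts in members, and 1 barcode held 45.9% of the Fabp6 counts in knockout 3. Of 8 tested Paneth markers, 6 had a fitted value below 0 and 1, Defa21, was lower at an unadjusted p under 0.05 (median log2 fold change -0.29). Over all 3009 tested genes, 1532 were below 0 and 70 (2.33%) were lower at that unadjusted level.

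Some genes differed between the biological replicates in both genotypes. Apoa4 stood at 1640 and 1580 CPM in flox 1 and 2 and 468 CPM in flox 3, and at 1104, 879 and 372 CPM in knockout 1, 2 and 3. Both collections 3 lay below all others, as they did for Fabp1. Apoa1, by contrast, was highest in collection 3 of each genotype, at 8611 and 9053 CPM. Of the 3009 genes, 31 (1.03%) were more than 2 times lower and 15 (0.499%) more than 2 times higher in replicate 2 in both genotypes. This pattern was noticed after the values were seen and was not tested.

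Whether the knockout effect in members differed from that in the other kept barcodes without immune cells was tested over 8 sums, and 5 of 9045 genes (0.0553%) passed edgeR's interaction test. They were Clca3, Fcgbp, Fabp6, Rn7sk and Rpph1. Fabp6 is an excluding gene of the rule, so its value in this test is set aside, and none of the other 4 is in a list of absorptive functions. In this test, 0 genes passed when the ileal barcodes were the comparison. For Fabp1 the difference was -0.93 on the log2 scale (edgeR adjusted p = 0.391).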

How the data were processed

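Drop-seq libraries of 3 knockout and 3 flox collections were analysed. The deposited tables hold whole-number counts per gene and cell barcode, with no scaling. STAR 2.6 aligned the reads to mm10, per the submitters' processing notes. For the annotation, barcode selection and UMI collapsing, settings were not given in the sources used here.

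Members and gene lists were chosen with earlier results of these data known. Doublets were not removed; barcodes with markers of other cell types were counted, and left out in an alternative. Collections held 1228337 to 3146909 counts; depth limits detection of rare genes.

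Counts of members were summed per biological replicate and tested with edgeR 4.0.16 in R 4.3.3 (TMM, filterByExpr at a minimum count of 10, adjusted p under 0.05). The interaction fit had each biological replicate as a block. DESeq2 1.42.0, filters, thinning, single collections and left-out collections were alternatives. Levels are CPM of summed counts, averaged over 6 collections; ratios need a mean of at least 20 CPM over both sets and over 3 counts. Shares used exact permutation tests (Python 3.11.15, SciPy 1.17.1).

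Named genes were the defining genes, the 20 with the largest ratio over other barcodes (at least 100 CPM), the 10 most unlike ileal barcodes each way, the 8 smallest p each way, up to 6 per list, and Ptger4, Mt1 and Mt2. Genes named beside counts of 5 or fewer, and Tff3, Mki67, Gata4, Xist, Slc40a1 and Cybrd1, were chosen after values were seen. Some items are not reported here. Symbols beginning Gm or ending Rik were not named. Positions come from GENCODE GRCm38, which held 17963 of 19178 symbols (93.7%).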

Additional observations from a re-analysis of the deposited data

Results flagged for a closer look

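Of the 5 genes with a different knockout effect in members and in the other kept barcodes, the 4 outside the rule are given with the log2 fold change in members minus that in the others. Clca3, a goblet protein, differed by 2.09 (edgeR adjusted p = 3.57e-06). It stood at 604 CPM in knockout members and 99.7 CPM in flox members, and at 877 and 703 CPM in the other barcodes. By collection, members were at 77.2, 934 and 823 CPM in knockout and at 64.6, 0 and 146 CPM in flox, so the genotypes overlapped. One barcode held 80.9% of the Clca3 counts in knockout 2 and another 93.5% in knockout 3. Without knockout collection 2 the difference was 1.39 (edgeR adjusted p = 0.359).

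Fcgbp, a mucus protein of goblet cells, differed by 1.53 (edgeR adjusted p = 0.00173). One barcode held 59.8% of its counts in knockout 2, and without that collection the difference was 0.32 (edgeR adjusted p = 1). Without flox 1 it was 2.97 (edgeR adjusted p = 2.97e-05), without flox 2 it was 1.35 (edgeR adjusted p = 0.0531) and without flox 3 it was 1.01 (edgeR adjusted p = 1).

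Rn7sk, a small nuclear RNA, differed by -1.68 (edgeR adjusted p = 0.00173). Its level in members was 1050.2 CPM in flox 1, where 1 barcode held 52.3% of the counts, and 0 to 288 CPM in the other collections. Without flox 1 the difference was 0.26 (edgeR adjusted p = 1). Without knockout 1 it was -1.61 and without knockout 3 it was -1.50 (edgeR adjusted p = 0.375 and 0.0905).

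Rpph1, the RNA of ribonuclease P, differed by -1.64 (edgeR adjusted p = 0.0422). It stood at 396 CPM in flox 1, where 1 barcode held 63.3% of the counts, and the difference was -0.39 without that collection (edgeR adjusted p = 1). The difference passed the threshold without flox 3, at -2.65, and in none of the 5 other cases of a collection left out.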

How the results depend on the processing

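The count of genes called between knockout and flox in members was 0. It was 9 with the biological replicate as a block and 1 with single collections and the collection number as a block. The pairing was not used: same-numbered collections correlated at -0.07, 0.11 and 0.19 over 1775 genes, and the biological replicates, 2 pairs read from the title codes, at 0.14 over 3009 genes. Blocked on the biological replicate, the Mt1 fit gave 2.08 (edgeR adjusted p = 2.9e-13). The count was 2 with DESeq2, 1 without TMM factors, 6 without a low-count filter and 2 with members thinned to at most 2000 counts. Of the alternatives chosen after seeing the data, it was 1 within flox 1, flox 2 and knockout 1, 10 within flox 3, knockout 2 and knockout 3, 2 without barcodes shared between collections and 2 without members holding markers of other cell types. Leaving out a collection or a biological replicate gave 0 to 16: 16 without knockout 3, 11 without flox 3 or without flox biological replicate 1, 6 without knockout biological replicate 1, 2 without flox 2, 1 without flox 1, and 0 without knockout 1 or knockout 2. One genotype was left with 1 sum without knockout 3, without flox 3, without either biological replicate 1 and within each set of 3 collections. The p-values and counts of those fits do not measure a spread between replicates of that genotype. The cause of the shifts in the count was not tested.

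Mt1 kept its direction in 25 of 25 alternatives (log2 fold change 1.47 to 2.84) and passed the threshold in 15 of them, some with 1 sum in a genotype. Of 141 named genes tested, 5 passed in any alternative, and 103 changed sign in at least 1.

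The interaction count of 5 became 3 with single collections, 0 against ileal barcodes and 2 to 5 with a collection left out. The Rn7sk difference reversed to 0.26 without flox 1, the other end of its range being -2.61 without flox 3. The difference in member share, -1.24 percentage points, was 0.413 without flox 3 and ran from -1.57 to 0.413 over left-out collections. Depth limits the members to 75335 to 202343 counts per sum.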
